A study of Mus musculus with 6 samples.

Results

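The eotaxins and the genes of the eosinophil were followed here as 10 genes in RNA of macrophages sorted from mouse omentum and mesentery. The genes were chosen by symbol and are the eotaxins Ccl11 and Ccl24, their receptor Ccr3, the cytokine Il5 and its receptor chain Il5ra, the surface lectin gene Siglec5, and the granule genes Prg2, Epx, Ear1 and Ear2. All 10 were among the 23946 gene symbols of the deposited table, and 8 of them reached an FPKM of 1 in 1 library or more, where FPKM counts fragments relative to transcript length and to the reads of the library. Epx and Il5 stayed below that level in every library. The macrophages were sorted as CD45+CD11b+F4/80+ cells from C57BL/6 mice and came from the omentum (OM) or the mesenteric adipose tissue (MY). Each tissue was sampled without injection (OM naive and MY naive) and 24 hours (OM 24h and MY 24h) and 7 days (OM 7d and MY 7d) after injection of ID8 cells, a mouse ovarian carcinoma line of the same strain. The methods describe inbred females of 6 to 8 weeks, and tissues of 3 mice were pooled for each condition, with 9 mice in all. With 1 library for each of the 6 conditions there are no replicates, so differences compare single libraries and carry no error or p-value.

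Eosinophils are granulocytes of type 2 immunity that reside in adipose tissue as well as in the gut and in inflamed sites. They are drawn in by the eotaxins, which bind CCR3, and they are made and kept alive under interleukin-5, which signals through a specific alpha chain and a beta chain shared with the receptors for interleukin-3 and GM-CSF. Mouse eosinophils carry CD11b and F4/80 on their surface, so a sort on CD45, CD11b and F4/80 alone does not separate them from macrophages. Macrophages themselves secrete CCL24 and express some of the eosinophil-associated ribonucleases, while fibroblasts are a main source of CCL11.

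The values of a library summed to between 526887 (MY naive) and 713863 FPKM (OM 24h). FPKM keep no read counts, so the depth of a value is unknown, and only a relative number of fragments behind 1 FPKM could be estimated from the commonest ratio of low values. Relative to MY naive it ran from 0.858 in OM naive to 1.49 in OM 7d, so a low value in OM 7d rests on more fragments than the same value in OM naive. An exact 0 in the table can be a failed estimate: Cd74, at 11323 FPKM or more in the other 5 libraries, was listed at 0 in OM 24h. Members are therefore only called listed at 0, and no size of a difference is given against such a value. The genes of the sort were present in every library, with Ptprc (CD45) at 105.8 to 208.3 FPKM, Itgam (CD11b) at 27.8 to 150.9 and Emr1 (F4/80) at 20.5 to 135.0. Markers of other cells were present too, and the values that touch a member are given beside it. In such bulk libraries, fewer cells of a type and less RNA per cell cannot be told apart.

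**Figure D1:**
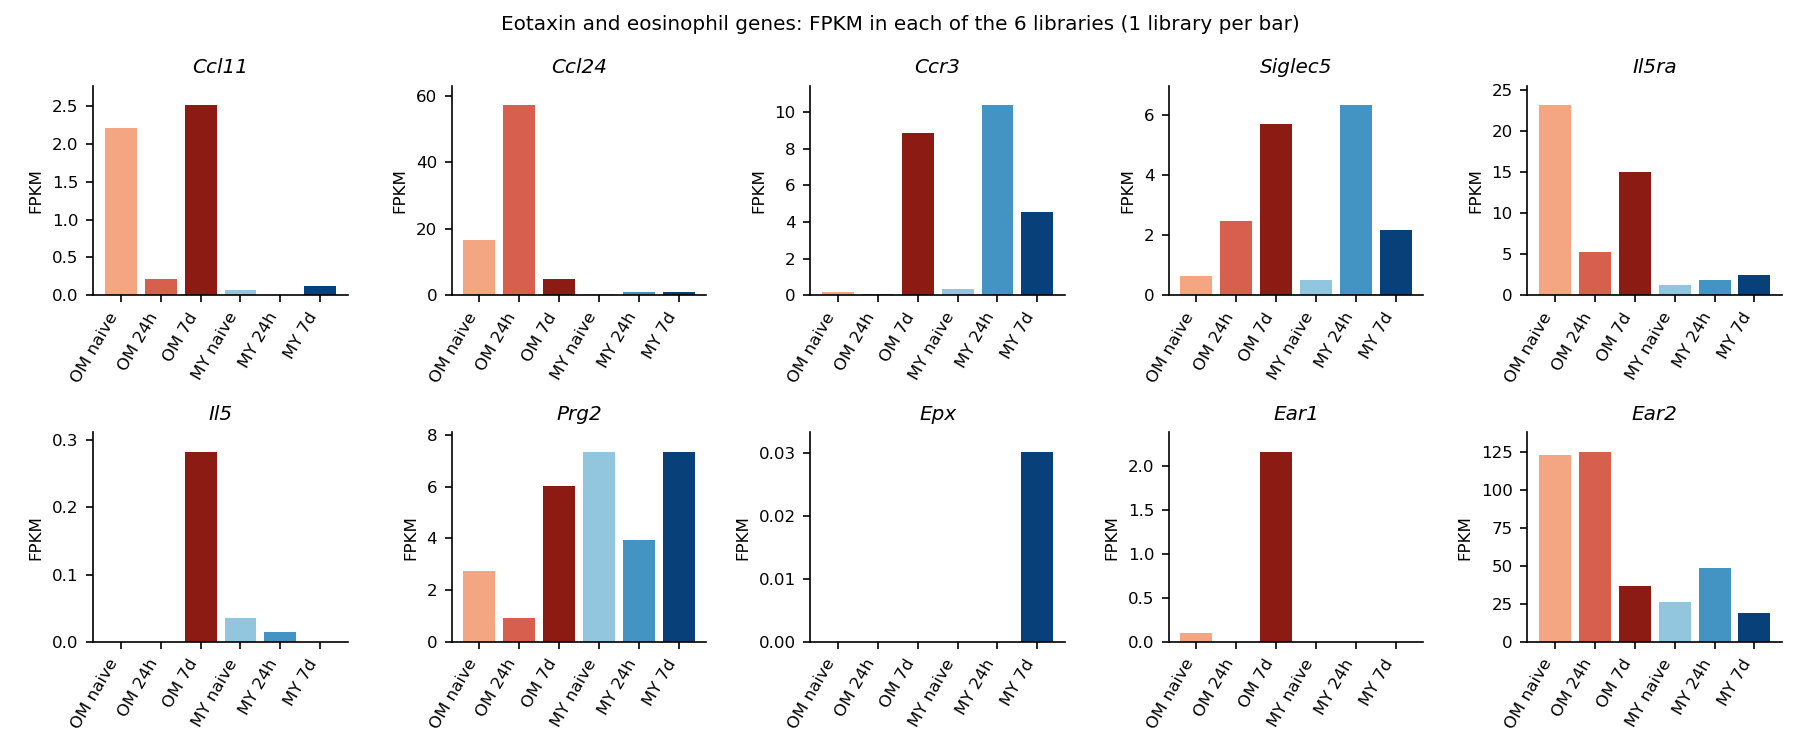
FPKM of each of the 10 genes (vertical axis, a separate linear scale for each gene, starting at 0) in each of the 6 libraries (horizontal axis). Each bar is 1 library and has no error bar. Ccl24 reached 57.3 FPKM in OM 24h, Ccr3 and Siglec5 were highest in MY 24h and next highest in OM 7d, and Ear2 was the most abundant of the genes in every library.

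Ccl24, which encodes eotaxin-2, was the more abundant eotaxin in every library and was higher in the omentum. Its level was 16.6 FPKM in OM naive, 57.3 in OM 24h and 4.99 in OM 7d, against 0.386 in MY naive, 1.06 in MY 24h and 0.994 in MY 7d. Every omental value was above every mesenteric value, and the order within the omentum was 24 hours, naive and 7 days. As differences of log2(FPKM + 1), a scale that shrinks the change of weakly expressed genes, the omentum was higher by 3.67 in the naive pair, by 4.82 at 24 hours and by 1.59 at 7 days. Within the omentum the level was 1.73 higher at 24 hours and 1.55 lower at 7 days than in OM naive. Within the mesentery the differences from MY naive were 0.57 and 0.52, below 2-fold on this scale but past it with 0.1 in place of 1 added to the FPKM (1.26 and 1.17). Ccl24 lies on the minus strand of chromosome 5 (chr5:136045807-136048913, NCBIM37, the assembly also called mm9) and has 3 exons.

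Csf1r, the gene of the macrophage growth factor receptor, moved in the same direction as Ccl24 in the omentum at 24 hours. Its level was 131.9, 569.8 and 102.8 FPKM in OM naive, OM 24h and OM 7d and 120.9, 313.2 and 192.1 in MY naive, MY 24h and MY 7d. The level of Ccl24 relative to that of Csf1r was 12.6% in OM naive and 4.86% in OM 7d, with OM 24h between them, and 0.319%, 0.339% and 0.517% in the 3 mesenteric ones. The ranges of this ratio did not overlap between the tissues, and within the omentum it was lowest at 7 days. The whole macrophage list of 6 genes was at least 2-fold higher in OM 24h than in OM naive for all 6, beside 11.9% of all genes. The part of macrophage abundance in the level of Ccl24 was not tested.

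Ccl11, which encodes eotaxin-1, was a low-level gene in these libraries. It had 2.21 FPKM in OM naive, 0.211 in OM 24h and 2.51 in OM 7d, against 0.0725 in MY naive, a listed 0 in MY 24h and 0.117 in MY 7d. Omental values again lay above the mesenteric ones, but OM 24h came close to them. The difference of log2(FPKM + 1) between the tissues was 1.58 in the naive pair and 1.65 at 7 days. In OM 24h it was 1.41 below OM naive, and in OM 7d it was within 0.13 of it. The gene lies on the plus strand of chromosome 11 (chr11:81871325-81876457) and has 3 exons.

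Fibroblast genes had the same order of libraries in the omentum as Ccl11. Lum, which encodes the matrix proteoglycan lumican, stood at 8.87, 1.73 and 10.7 FPKM in the omentum (naive, 24 hours and 7 days) and at 0.155 to 0.223 in the mesentery. Pdgfra, the receptor gene that marks adipose stromal cells, stood at 1.29, 0.277 and 3.74 in the omentum and at no more than 0.0573 in the mesentery. The summed level of the 6 fibroblast genes was 344.6, 221.5 and 1190 FPKM in the omental libraries and 2.08 to 3.10 FPKM in the mesenteric ones. In the mesentery the order differed from that of Ccl11. Lum and this sum were highest in MY 24h (0.223 and 3.10 FPKM), where Ccl11 and Pdgfra were listed at 0. The part of stromal RNA in the level of Ccl11 was not tested.

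Of the other CCR3 ligands, Ccl5 was above both eotaxins in every library and Ccl7 was the more omental gene. Ccl5, the gene of RANTES, which also attracts T cells and monocytes, stood at 1969, 1696 and 928.1 FPKM in MY naive, MY 24h and MY 7d, and at 344.6, 134.9 and 255.6 in OM naive, OM 24h and OM 7d. Ccl7, which encodes a chemokine for monocytes and eosinophils, was instead higher in the omentum. It had 23.7, 124.8 and 26.4 FPKM in the omental libraries and at most 0.931 in the mesenteric ones. Ccl28, a mucosal chemokine gene, was listed at 0 in 5 libraries and at 0.0156 in MY 24h. The peak of Ccl7 in OM 24h was shared with Ccl24, whereas Ccl5 was lowest there.

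Ccr3, the eotaxin receptor gene, was nearly absent from both naive libraries and from OM 24h, and present after injection in the other libraries. Its level was 0.172 FPKM in OM naive, 0.0934 in OM 24h and 8.86 in OM 7d. In the mesentery it was 0.371 in MY naive, 10.4 in MY 24h and 4.54 in MY 7d. Values of the tissues overlapped. The mesentery was high at 24 hours, when the omentum was at its lowest, and the omentum was high at 7 days. On the log2(FPKM + 1) scale the differences from the naive library were 3.05 in MY 24h, 2.01 in MY 7d, -0.10 in OM 24h and 3.07 in OM 7d. Between the tissues, the difference of OM 24h from MY 24h was -3.38 and that of OM 7d from MY 7d was 0.83. Ccr3 lies on the plus strand of chromosome 9 (chr9:123936703-123946421) with 2 exons, and none of the 3199 windows of 75 bases in its transcript occurred in a coding transcript of another gene.

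Siglec5, the name used in the table for the gene of Siglec-F, a sialic acid-binding lectin found on mouse eosinophils and alveolar macrophages, followed Ccr3 in part. It had 0.639 FPKM in OM naive, 2.47 in OM 24h and 5.68 in OM 7d, and 0.523 in MY naive, 6.32 in MY 24h and 2.19 in MY 7d. Both genes were highest in MY 24h and next highest in OM 7d. They parted in OM 24h, where Siglec5 was 1.08 above OM naive on the log2 scale and Ccr3 was not. The other differences of Siglec5 from the naive libraries were 2.03 in OM 7d, 2.27 in MY 24h and 1.07 in MY 7d. Siglec5 lies on chromosome 7, plus strand (chr7:50606711-50614901), and has 9 exons.

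Of 14 genes with at least 1 FPKM in the other eosinophil, type 2 and eosinophil transcription factor lists, 4 shared the omental maximum at 7 days and the mesenteric maximum at 24 hours (Alox15, Il4, Gata1 and Cebpe), as did 10.3% of all genes. This pattern was picked out after the values were seen, and Cebpe is described further on. Il4 reached 1 FPKM only in OM 7d, MY 24h and MY 7d, so it entered this count through libraries in which it was high. Alox15, the 12/15-lipoxygenase gene of eosinophils and resident peritoneal macrophages, had 5.03, 22.7 and 36.1 FPKM in OM naive, OM 24h and OM 7d and 1.88, 32.6 and 15.5 in MY naive, MY 24h and MY 7d. Il4, the type 2 cytokine gene that eosinophils, basophils and T cells transcribe, had 0.133, 0.395 and 3.29 FPKM in the omentum and 0.791, 4.48 and 2.23 in the mesentery. Gata1, the transcription factor gene required for the eosinophil lineage and also used by mast cells and erythroid cells, had 0.242, 0.470 and 3.84 FPKM and 1.16, 3.78 and 1.55 FPKM in the same order. In both tissues each of these 3 genes was above its naive level at both times after injection. Zfpm1, a cofactor gene of GATA factors, was instead below its naive level in both tissues at both times, with 20.8, 4.85 and 10.7 FPKM in the omentum and 23.1, 10.9 and 15.5 in the mesentery. Emr4, also of the eosinophil list, had 20.8, 38.3 and 18.2 FPKM in the omentum and 13.3, 27.3 and 18.3 in the mesentery. It was highest in OM 24h, where Ccr3 was lowest, and within the omentum it was lowest in OM 7d. The eosinophil receptor genes Ptgdr2 and Hrh4 stayed at or below 0.156 and 0.188 FPKM, and Hrh4 was listed at 0 in all 3 omental libraries.

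**Figure D2:**
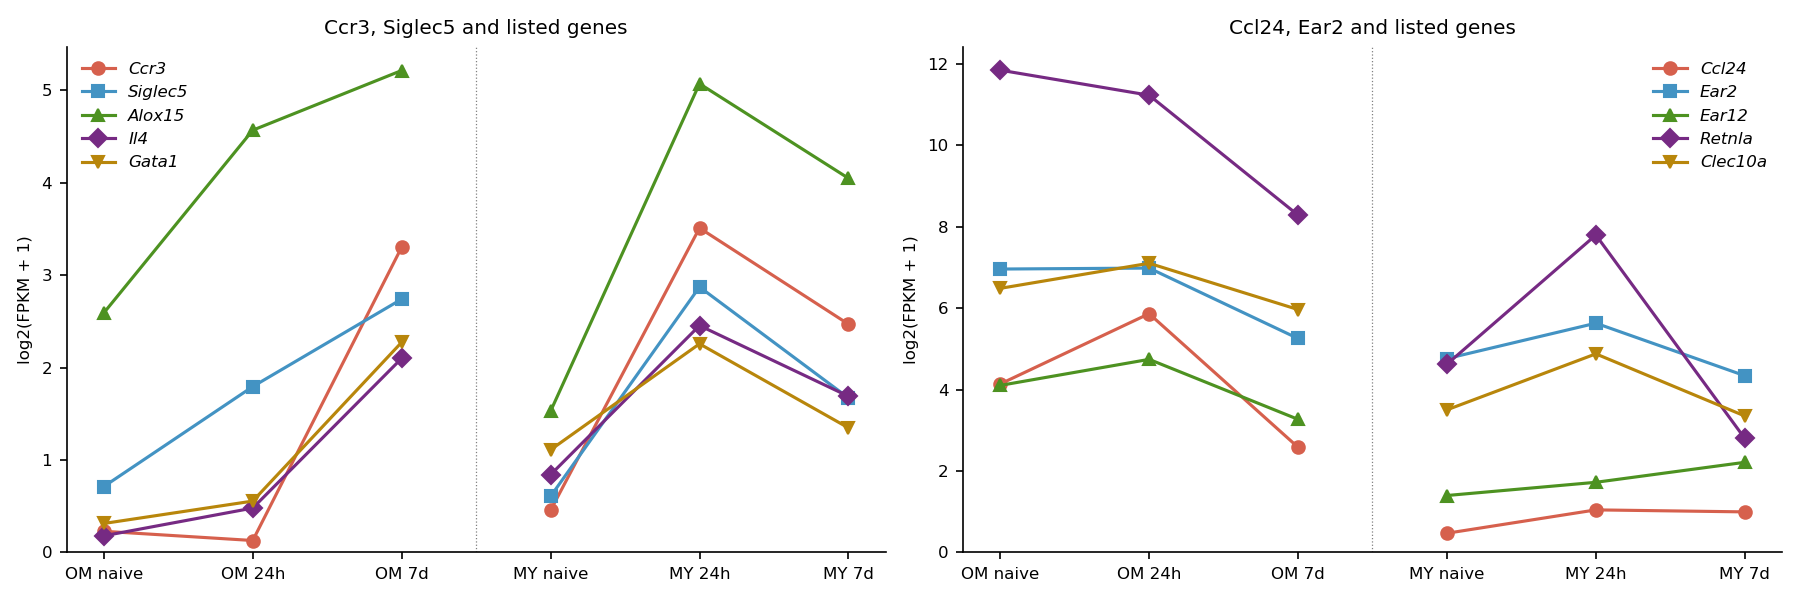
Levels as log2(FPKM + 1) (vertical axis) in the 3 omental and the 3 mesenteric libraries (horizontal axis), with 1 library per point and lines joining libraries of a tissue. On the left, Ccr3, Siglec5, Alox15, Il4 and Gata1 had their mesenteric maximum at 24 hours and their omental maximum at 7 days. Cebpe, which shared these maxima, and listed genes without both maxima, such as Emr4, are not drawn. On the right, Ccl24, Ear2, Ear12, Retnla and Clec10a were higher in each omental library than in the mesenteric library of the same time.

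Genes that mark basophils and mast cells, which also carry CCR3, shared this order only in part. Mcpt8, the basophil protease gene, stood at 6.97 FPKM in OM 7d, at 1.34 in MY naive and at a listed 0 in MY 24h, where Ccr3 was highest. Prss34, another basophil protease gene, stood at 7.55 in OM 7d and at 1.07 in MY 24h and was listed at 0 elsewhere. Hdc, like Prss34, had its omental maximum at 7 days and its mesenteric maximum at 24 hours, as Ccr3 did. Its level was 12.15, 16.33 and 25.05 FPKM in OM naive, OM 24h and OM 7d and 2.43, 3.67 and 1.21 in MY naive, MY 24h and MY 7d. The other mast cell and basophil genes of the list did not share both maxima. Cpa3, the carboxypeptidase of mast cells, stood at 10.4, a listed 0 and 8.83 FPKM in the omentum (naive, 24 hours and 7 days) and at 0.274, 0.717 and 9.57 in MY naive, MY 24h and MY 7d. The summed level of the 10 mast cell and basophil genes was lowest in OM 24h (20.7 FPKM) and highest in OM 7d (107.4 FPKM), and in the mesentery it was 42.7, 48.2 and 75.2 FPKM. Their part in the level of Ccr3 was not tested.

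Il5ra, the gene of the specific alpha chain of the IL-5 receptor, which is carried by eosinophils and by B-1 cells, was higher in the omentum. It had 23.2 FPKM in OM naive, 5.34 in OM 24h and 15.0 in OM 7d, against 1.26 in MY naive, 1.87 in MY 24h and 2.49 in MY 7d. Omental and mesenteric values did not overlap. The omentum was higher by 3.42 on the log2 scale in the naive pair, by 1.14 at 24 hours and by 2.20 at 7 days. In OM 24h the level was 1.93 below OM naive, and in OM 7d it was 0.59 below. In the mesentery it was 0.34 above MY naive at 24 hours and 0.63 above at 7 days. The gene lies on the minus strand of chromosome 6 (chr6:106660378-106695103) and has 11 exons.

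In the omentum Il5ra had the same order of libraries as the B cell genes. Cd79a, a chain of the B cell receptor complex, had 1551, 391.9 and 982.7 FPKM in OM naive, OM 24h and OM 7d and 336.5, 221.9 and 635.2 in MY naive, MY 24h and MY 7d. The level of Il5ra relative to that of Cd79a was 1.49%, 1.36% and 1.53% in the 3 omental libraries, a narrow range beside the change of Il5ra itself. In the mesenteric libraries it was 0.375%, 0.844% and 0.392%. The summed level of the 4 B cell genes was 3958, 902.7 and 2442 FPKM in the omentum and 792.3, 521.6 and 1532 FPKM in the mesentery. The part of B cells in the level of Il5ra was not tested.

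**Figure D3:**
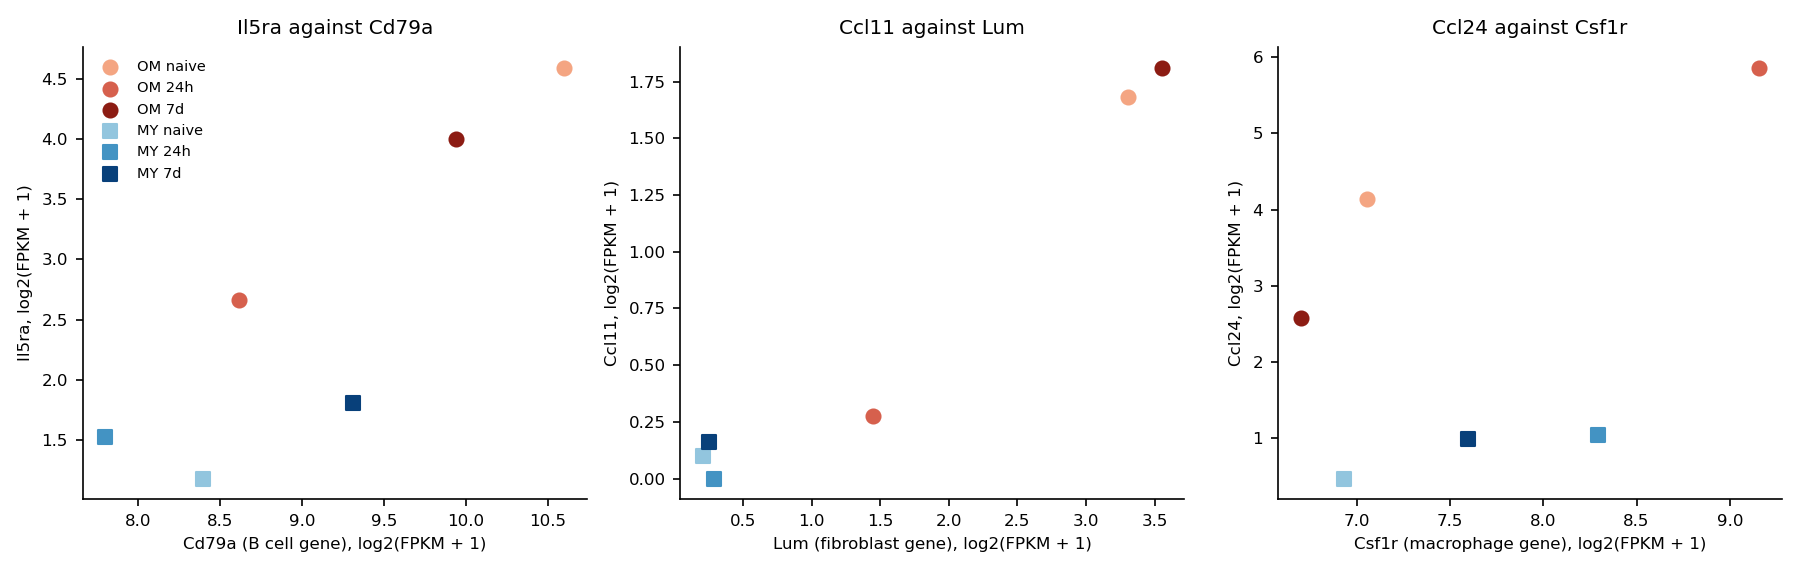
Il5ra, Ccl11 and Ccl24 (vertical axes) against a B cell gene, a fibroblast gene and a macrophage gene (horizontal axes), all as log2(FPKM + 1), with 1 point per library, circles for omentum and squares for mesentery. Il5ra and Ccl11 had the same order as Cd79a and Lum over the 3 omental libraries, and Ccl24 was highest where Csf1r was highest, in OM 24h.

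Il5 itself was at the edge of detection. It was listed at 0 in OM naive, OM 24h and MY 7d and stood at 0.0353 FPKM in MY naive, 0.0144 in MY 24h and 0.283 in OM 7d. It lies on the plus strand of chromosome 11 (chr11:53534296-53538608) and has 4 exons. Its highest value fell in the library with the most fragments behind each FPKM. Il13, its companion type 2 cytokine gene, was at no more than 0.0369 FPKM in any library, and Il3 was listed at 0 in all 6. The other chains of this receptor family were well expressed in both tissues. Csf2rb, the shared beta chain, had 50.8 to 54.6 FPKM in the omentum and 61.8 to 107.3 FPKM in the mesentery, and Csf2ra, the GM-CSF receptor alpha chain, had 71.5 to 320.8 FPKM over the 6 libraries. Of the 5 genes of this list that reached 1 FPKM, at most 1 differed 2-fold in any of the 7 comparisons, where the share of all genes was 2.79% to 24.1%.

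The granule genes had no common pattern. Prg2, which encodes the major basic protein, was listed in every library, with 2.72 FPKM in OM naive, 0.931 in OM 24h and 6.03 in OM 7d and with 7.32 in MY naive, 3.94 in MY 24h and 7.36 in MY 7d. At 24 hours its log2 difference from the naive library was -0.95 for the omentum and -0.75 for the mesentery, neither of which reached 2-fold. The omental difference did so with 0.1 added to the FPKM (-1.45) or with libraries scaled to an equal sum (-1.22). The omentum was lower than the mesentery by 1.16 in the naive pair and by 1.35 at 24 hours. Prg3, the neighbouring gene for a homologue of the major basic protein, was higher in the mesentery throughout, with 16.3, 9.44 and 8.71 FPKM in MY naive, MY 24h and MY 7d against 0.654, 0.930 and 0.377 in OM naive, OM 24h and OM 7d. Prg2 lies on the plus strand of chromosome 2 (chr2:84820618-84823789) and has 6 exons.

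Epx, the gene of eosinophil peroxidase and the most specific of the granule genes, was listed at 0 in 5 libraries and at 0.0303 FPKM in MY 7d. In MY 24h and OM 7d, where Ccr3 and Siglec5 were highest, Epx was listed at 0. Prg2 stood at 3.94 FPKM in MY 24h and at 6.03 in OM 7d. Granule protein genes are known to be transcribed mainly while eosinophils mature in bone marrow. Whether this bears on the level of Epx was not tested. Epx lies on the minus strand of chromosome 11 (chr11:87677502-87689038) with 13 exons, and none of its 2615 windows of 75 bases was shared with another gene.

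Ear2 was the most abundant of the 10 genes in every library, and Ear1, a close relative in sequence, was nearly absent. Both encode eosinophil-associated ribonucleases, secreted enzymes of the RNase A family, and Ear2 is known to be transcribed in monocytes and macrophages as well. Ear2 had 123.6 FPKM in OM naive, 125.6 in OM 24h and 37.2 in OM 7d, and 26.1 in MY naive, 48.5 in MY 24h and 19.3 in MY 7d. At matched times it was higher in the omentum, by 2.20 in the naive pair, by 1.35 at 24 hours and by 0.91 at 7 days on the log2 scale, although OM 7d lay below MY 24h. In OM 7d it was 1.71 below OM naive. Ear1 was listed at 0 in OM 24h and in all 3 mesenteric libraries and stood at 0.101 FPKM in OM naive and 2.17 in OM 7d, a difference of 1.52. Both genes have 2 exons on chromosome 14, Ear1 on the minus strand (chr14:44396430-44397304) and Ear2 on the plus strand (chr14:44680319-44681199). OM 7d was the library where Ear1 was highest and where Ear2 was lowest within the omentum.

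The coding sequences of Ear1 and Ear2 are shown because the count of either gene depends on how reads of the pair were assigned. Over 468 aligned bases 20 differed, an identity of 95.7%, and the longest identical run was 96 bases, longer than a read of 75 bases. The stretch from base 51 to base 170 of each coding sequence held the most differences of any stretch of 120 aligned bases, and capitals mark the 8 bases that differ.
Ear1: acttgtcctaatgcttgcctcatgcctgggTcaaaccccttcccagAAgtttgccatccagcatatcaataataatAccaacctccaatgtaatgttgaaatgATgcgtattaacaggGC
Ear2: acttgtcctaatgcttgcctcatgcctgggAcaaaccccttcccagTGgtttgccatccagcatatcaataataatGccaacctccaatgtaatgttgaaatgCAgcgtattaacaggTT

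The flanks of the pair were closer still. Of 248 aligned bases in the 250 bases upstream, 2 differed, an identity of 99.2%, and the longest identical run was 197 bases. These windows were read from NCBIM37 on the strand of each gene. They are shown because, in OM naive, Ear2 stood at 123.6 FPKM and Ear1 at 0.101 with almost the same upstream letters. Capitals mark the bases that differ. The Ear1 window is on the minus strand (chr14:44397307-44397554) and the Ear2 window on the plus strand (chr14:44680071-44680318).
Ear1 upstream: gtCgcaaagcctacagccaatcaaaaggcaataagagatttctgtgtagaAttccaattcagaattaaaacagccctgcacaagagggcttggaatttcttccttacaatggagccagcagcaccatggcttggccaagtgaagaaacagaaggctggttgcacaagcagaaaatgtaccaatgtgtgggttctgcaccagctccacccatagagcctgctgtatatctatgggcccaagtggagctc
Ear2 upstream: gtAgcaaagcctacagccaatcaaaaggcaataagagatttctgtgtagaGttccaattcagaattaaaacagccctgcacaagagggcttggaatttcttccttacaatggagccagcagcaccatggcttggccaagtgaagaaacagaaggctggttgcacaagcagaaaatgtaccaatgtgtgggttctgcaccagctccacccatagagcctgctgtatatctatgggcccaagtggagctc

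Of the 639 windows of 75 bases in the Ear1 transcript, 85 (13.3%) occurred in Ear2 or Ear10, and of the 645 windows in Ear2, 142 (22.0%) occurred in Ear1 or Ear10. Most windows of each gene were therefore found in no other transcript searched. The split of the shared reads by the authors is uncertain, and of these values the low one of Ear1 is the one it could change most. Ear10, which shared 119 windows with Ear2 and 62 with Ear1, was at no more than 0.192 FPKM in any library. Ear12 was the only other gene of the family above 2 FPKM, with 16.2, 25.8 and 8.64 FPKM in OM naive, OM 24h and OM 7d and 1.64, 2.30 and 3.64 in MY naive, MY 24h and MY 7d. Ear11, listed in the table as Rnase2a, reached 1.62 FPKM in OM 24h and was at or below 0.213 elsewhere. The remaining genes, Ear4, Ear5 (listed as Rnase2b), Ear6, Ear7 and Ear14, stayed below 0.5 FPKM in every library. The Ear12 transcript was not among the sequences searched, so the windows it shares with Ear1 or Ear2 are unknown.

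Ccr3 and Prg2 each held a GATAA sequence, the core read by GATA factors, in the 250 bases before the annotated start of the gene. Their windows are shown with that sequence, or its reverse complement TTATC, in capitals.
Ccr3 upstream: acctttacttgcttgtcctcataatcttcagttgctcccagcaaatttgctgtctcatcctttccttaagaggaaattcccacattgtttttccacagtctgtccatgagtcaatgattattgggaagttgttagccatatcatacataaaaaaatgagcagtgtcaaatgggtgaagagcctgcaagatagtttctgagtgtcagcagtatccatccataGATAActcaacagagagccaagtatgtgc
Prg2 upstream: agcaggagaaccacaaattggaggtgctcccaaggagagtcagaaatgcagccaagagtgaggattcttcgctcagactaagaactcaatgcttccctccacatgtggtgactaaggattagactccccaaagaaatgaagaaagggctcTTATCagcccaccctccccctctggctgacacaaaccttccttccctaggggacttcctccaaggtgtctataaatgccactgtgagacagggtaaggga

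The Ccr3 window is on the plus strand of chromosome 9 (chr9:123936453-123936702), with the sequence starting 29 bases before the gene start, and the Prg2 window is on the plus strand of chromosome 2 (chr2:84820368-84820617), with it starting 100 bases before. Searched on both strands, GATAA occurred in 2 of the 10 windows of these genes (20.0%) and in 4814 of 22380 windows of protein-coding genes (21.5%), so its presence did not set the members apart. A motif of TTC and GAA with 4 bases between them, read by STAT6, occurred in 0 of the 10 windows and in 5.52% of all windows. A match is a run of letters and not a site shown to be used, and no match says only that these letters are not in the window. Ccr3 and Prg2 had different profiles over the 6 libraries, as given above.

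Counted over the comparisons, 5 of the 8 members with at least 1 FPKM were at least 2-fold apart on the log2(FPKM + 1) scale between the naive libraries, 4 higher in OM naive (Ccl11, Ccl24, Ear2 and Il5ra) and 1 lower (Prg2). Of all 13064 genes with that level, 16.2% were, 8.18% higher and 8.05% lower. At 24 hours 6 of the 8 were past 2-fold between the tissues, against 24.1% of all genes (13.9% higher and 10.2% lower), with Ccl24, Ear2 and Il5ra higher in the omentum and Ccr3, Prg2 and Siglec5 lower. At 7 days 5 of the 8 were, all higher in the omentum (Ccl11, Ccl24, Ear1, Siglec5 and Il5ra), against 19.1% of all genes (14.1% higher and 4.99% lower). The count for Ear1 rests on a listed 0 in MY 7d, and without it 4 members were past 2-fold. Ear1 reached 1 FPKM only in OM 7d, and Ccl11 only in OM naive and OM 7d. Both thus entered the counts through libraries in which they were high. The median difference of the 8 members was 0.86, 0.14 and 1.33 in the 3 comparisons, while that of all genes was 0.01, 0.00 and -0.01. The members' medians take in listed zeros, of Ear1 in all 3 comparisons and of Ccl11 at 24 hours. For 3 of the 8 (Ccl11, Ccl24 and Il5ra) the omental libraries lay above all mesenteric libraries, and for none of the 8 below. Of all genes, 34.4% did not overlap, 16.7% with the omentum above and 17.7% with it below, so the members' count over both directions together was near the background, with all 3 of them above.

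Against the naive omentum, 4 of the 8 members were past 2-fold in OM 24h, with Ccl24 and Siglec5 higher and Ccl11 and Il5ra lower, and 18.3% of all genes were (11.9% higher and 6.45% lower). In OM 7d 5 of the 8 were, with Ccr3, Siglec5 and Ear1 higher and Ccl24 and Ear2 lower, and 12.9% of all genes were (11.0% higher and 1.96% lower). Ear1 entered this count only through its value in OM 7d. Against the naive mesentery, Ccr3 and Siglec5 were the 2 members past 2-fold both in MY 24h and in MY 7d, and both were higher. Ccr3 and Siglec5 reached 1 FPKM only in libraries after injection. In the comparisons of both tissues with a naive library they thus entered the counts through libraries in which they were high. Of all genes, 4.32% were past 2-fold in MY 24h (2.80% higher and 1.52% lower) and 2.79% in MY 7d (0.498% higher and 2.29% lower). The comparisons with a naive library share that library, so they are not independent of each other. Within the omentum, Ccl24 was highest in the library where Ccr3 was lowest, OM 24h, but Ccr3 was nearly as low in OM naive (0.0934 against 0.172 FPKM). In the mesentery both genes were highest in the same library, MY 24h (1.06 and 10.4 FPKM).

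**Figure D4:**
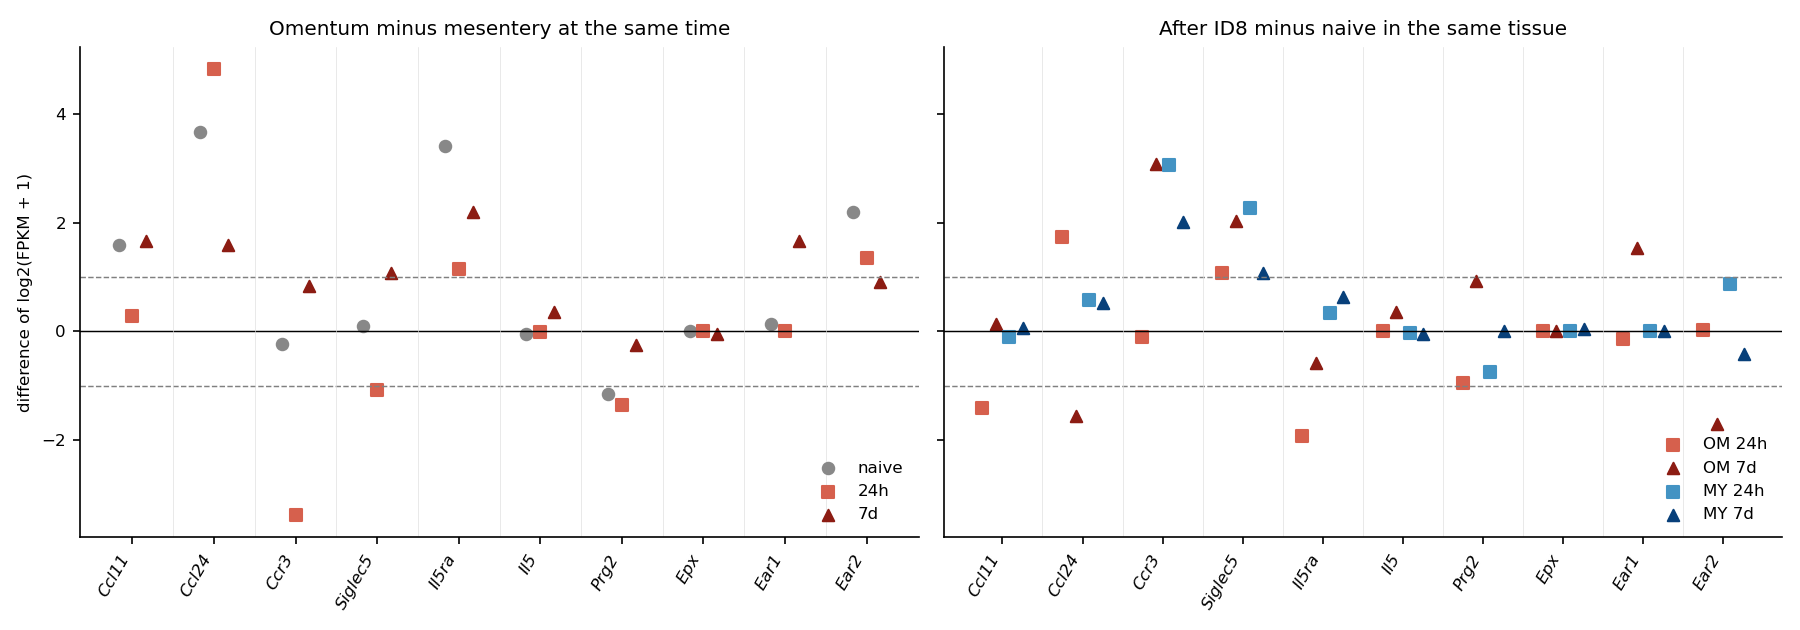
Differences of log2(FPKM + 1) (vertical axis) for each of the 10 genes (horizontal axis), between the tissues at the same time on the left and from the naive library of the tissue on the right, with 1 pair of libraries per symbol and dashed lines at 2-fold. Ccl24 and Il5ra were above the upper line at all 3 times on the left, and Ccr3 and Siglec5 were above it in MY 24h, MY 7d and OM 7d on the right.

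Of the genes of type 2 signalling, Il4ra and Stat6 kept to narrow ranges and the receptor chain gene Il13ra1 did not, with 11.4 to 37.2 FPKM. Il4ra, the chain shared by the receptors for IL-4 and IL-13, stood at 46.1 to 67.4 FPKM in the 6 libraries, and Stat6, the factor it activates, at 68.8 to 92.4. Of the 5 genes of the type 2 list with at least 1 FPKM, none was past 2-fold between the naive libraries, 1 was in OM 24h against OM naive (Il13ra1, 1.15 higher) and 1 in OM 7d (Il4, 1.92 higher). In MY 24h, Il4 and Il13ra1 were 1.61 and 1.20 above MY naive. Of all genes, 16.2%, 18.3%, 12.9% and 4.32% were past 2-fold in the same order of comparisons.

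The alarmins and their receptors stand upstream of IL-5 in type 2 immunity. Il33 stood at 1.72, 2.42 and 12.6 FPKM in the omentum (naive, 24 hours and 7 days) and at 4.01, 4.23 and 2.68 in MY naive, MY 24h and MY 7d. Its receptor gene Il1rl1 stood at 3.44, 1.33 and 2.39 FPKM in the omentum and at 0.446 to 0.894 in the mesentery. Gata3, the factor of group 2 innate lymphoid cells and of T cells, was higher in the mesentery at each time, with 14.6, 7.07 and 11.6 FPKM against 5.39, 2.10 and 6.07. T cell genes had the same direction, with a summed level of 378.6 to 838.3 FPKM for the 5 genes in the mesentery and 22.4 to 87.5 FPKM in the omentum. Il25 was listed at 0 in all 6 libraries. Of the 8 genes of the list with at least 1 FPKM, 2 were higher and 1 was lower in OM naive than in MY naive. Of all genes, 8.18% were higher and 8.05% lower.

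Transcription factors of the eosinophil lineage are known from other cell types as well. Cebpe, required for late granulocyte maturation of both eosinophils and neutrophils, stood at 12.4 FPKM in OM naive, 15.3 in OM 24h and 28.0 in OM 7d and, in the mesentery, at 1.71, 7.25 and 3.97 in MY naive, MY 24h and MY 7d. Elane is a granule gene of immature neutrophils. It stood at 118.5, 39.4 and 235.0 FPKM in the omentum and at 1.41 or a listed 0 in the mesentery. Of the 5 neutrophil genes, Elane and Mpo fell past 2-fold from OM naive to OM 24h, and the other 3 rose past it. S100a8 stood at 3020, 7826 and 8381 FPKM in the omentum and at 287.9, 218.7 and 32.1 in MY naive, MY 24h and MY 7d. Csf3r stood at 6.21, 24.1 and 9.36 FPKM and at 5.99, 13.4 and 6.46 in the same order. The part of neutrophils in the level of Cebpe was not tested. Trib1, needed for eosinophils and for some tissue macrophages, stood at 39.9 to 50.6 FPKM in the omentum and at 5.45 to 6.62 in the mesentery. Of the 6 genes of the transcription factor list, 2 were higher in OM naive than in MY naive (Cebpe and Trib1), beside 8.18% of all genes. In MY 24h against MY naive, 2 were higher (Gata1 and Cebpe) and 1 was lower (Zfpm1), beside 2.80% and 1.52% of all genes.

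Genes of alternatively activated macrophages were mostly higher in the omentum, as Ccl24 and Ear2 were at matched times. Retnla, a secreted product of macrophages exposed to IL-4, stood at 3681, 2402 and 311.0 FPKM in the omentum (naive, 24 hours and 7 days) and at 23.6, 221.3 and 5.97 in MY naive, MY 24h and MY 7d. Clec10a, a lectin of the same state, stood at 88.6, 136.5 and 61.5 FPKM and at 10.3, 28.4 and 9.21. Of the 7 genes of the list with at least 1 FPKM, 6 were higher in OM naive than in MY naive, 7 at 24 hours and 5 at 7 days, with medians of 2.98, 2.68 and 2.55. Of all genes, 8.18%, 13.9% and 14.1% were higher in the same order. The log2 difference was -0.70 for Arg1 in the naive pair, and -0.24 for Mrc1 and -0.21 for Cd163 at 7 days. Other lists shared the direction. Between the naive libraries, 6 of 6 fibroblast, 5 of 5 mesothelial, 4 of 5 neutrophil and 4 of 4 B cell genes were higher. All 5 T cell and all 4 natural killer cell genes were lower. In OM 24h against OM naive, 3 of the 7 were higher and 1 was lower, beside 11.9% and 6.45% of all genes. Ccl24 was 1.73 higher there, while Ear2 differed by 0.02. In OM 7d against OM naive, 4 of the 7 were lower, as Ccl24 and Ear2 were, and 2 were higher (Arg1 and Chil3). Of all genes, 1.96% were lower there and 11.0% were higher.

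For the 4 members with at least 10 FPKM in a library, the genes of most similar pattern were taken by Pearson correlation of log2(FPKM + 1) over the 6 libraries, among 7997 genes. For Ccl24 they were Entpd1, Cdk2ap1, Atp6v0c, Clic1 and Ckb (r of 0.993 to 0.996), and 341 genes had an r above 0.9. For Ccr3 they were Rnf185, Gtf2a2, Slc25a20, Rdh14 and Fyttd1 (0.96 to 0.97), with 13 genes above 0.9. For Ear2 they included Clps, Arl8a, Ly96 and Ltc4s (0.98 to 0.99), with 111 above 0.9, and for Il5ra they were Mcu, Diras2, Rdh12, Lmo7 and Slc20a2 (0.992 to 0.996), with 174. The correlations rest on 6 libraries that share the contrast of tissues, and several of the genes differed far less than the member: Rnf185 ranged from 9.68 to 13.5 FPKM and Ccr3 from 0.0934 to 10.4.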

How the data were processed

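RNA of sorted macrophages of 6 conditions was analysed, 1 library each. The authors used FastQC 0.11.4 for read quality and STAR 2.4.2a for alignment to mm9 under UCSC gene models, and deposited FPKM per gene symbol from Cufflinks. Whether FPKM were scaled further between libraries was not stated, and the median ratio of each library to the geometric mean was 0.992 to 1.01. Read counts were not analysed here, so neither a count test nor any other test between conditions was made.

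Log2(FPKM + 1) was computed in Python 3.11.15 (numpy 2.4.6, pandas 2.3.3, figures by matplotlib 3.10.9). A gene entered the counts if any library had an FPKM of 1 or more, and 2-fold was the threshold. The members and the 16 other lists were chosen with earlier results of these data known. Of 99 list genes, 97 were in the table, a few under another symbol. Genes named are members, list genes, and the 5 genes most correlated with each member that reached 10 FPKM, of which 1 is not reported here. Alternatives were pseudocounts of 0.1 and 5, 2 scalings and filters on low values. The counting and the relative depth were tested on simulated data. Positions and sequences come from NCBIM37 with GENCODE M1, not the annotation of the authors.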

Additional observations from a re-analysis of the deposited data

Results flagged for a closer look

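Il5ra after 7 days stood apart because the tissues moved oppositely. The difference of log2(FPKM + 1) from the naive library was -0.59 for omentum and 0.63 for mesentery, past 1.5-fold in either case, which on this scale is 0.58. The omental value passed that limit narrowly and did not pass it after scaling to an equal sum (-0.46, with 0.73 in the mesentery). With a pseudocount of 5 neither value passed it (-0.49 and 0.26), although the directions stayed opposite. The FPKM were 15.0 against 23.2 in the omentum and 2.49 against 1.26 in the mesentery. The difference between the tissues was not tested, since each condition has 1 library. The summed level of the B cell genes moved in the same directions, from 3958 to 2442 FPKM in the omentum and from 792.3 to 1532 FPKM in the mesentery, and its part in the result was not tested.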

How the results depend on the processing

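No paired analysis was possible because a condition, the unit compared, is a single library. A fit over the 3 pairs of tissues with time as a block would take the time points as replicates and was not made. Of 280 recomputed differences of members, 232 stayed within 1.5-fold (0.58 on the log2 scale), 48 moved further and 0 of those past 2-fold changed sign. Of the 29 differences past 2-fold, 29 remained so with 0.1 added to the FPKM, 14 with 5 added, which shrinks low values by construction, 29 after median-ratio scaling and 28 after scaling to an equal sum. Another 9 differences came past 2-fold with 0.1 added and another 2 after scaling to an equal sum, among them Prg2 in OM 24h and OM 7d against OM naive under both. With a pseudocount of 5, the members past 2-fold numbered 3 in OM naive against MY naive, 3 in OM 24h against MY 24h, 1 in OM 7d against MY 7d, 2 in OM 24h and 3 in OM 7d against OM naive, and 0 in MY 7d against MY naive. The shares of all genes were 7.91%, 12.4%, 8.99%, 8.92%, 5.35% and 1.09% in the same order. Among the 4 members that reached 10 FPKM they numbered 3 in OM naive against MY naive, 2 in OM 7d against MY 7d, 2 in OM 24h and 3 in OM 7d against OM naive, and 1 each in MY 24h and MY 7d against MY naive, beside 17.8%, 16.8%, 19.8%, 10.5%, 4.89% and 3.00% of all genes at that filter. Scaling to an equal sum shifted the median of all genes by -0.28 to 0.13. The number of members without overlap between the tissues, 3, was the same under both scalings, an alternative chosen after seeing the data. Of the 5 genes most like each member, a filter of 1 FPKM kept 5 for Ccl24, 3 for Ccr3, 3 for Ear2 and 5 for Il5ra. Spearman correlation over 6 libraries could not rank them, since its first 5 genes were tied at 1 for Ccl24, Ear2 and Il5ra.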
